A study of Homo sapiens with 9 samples.

Results

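Transcripts of OPM-1 cells stably expressing an RNA against FBXW7 (gFBXW7, 3 libraries) were compared with those of OPM-1 cells stably expressing an RNA against luciferase, a gene that human cells lack (gLuc, 3 libraries, the control). These 6 libraries are 6 of the 9 in the series, and they were chosen by their labels, with no measured value used. The remaining 3 libraries carry RNAs against FBXW7 and KMT2D together (gFBXW7_gKMT2D), and their values stand beside the others only where they help to read them. OPM-1 is an established human multiple myeloma line, a tumour of plasma cells, and all 9 libraries carry the genotype label WT. Cells were grown in RPMI medium with fetal bovine serum, and polyadenylated RNA was sequenced in strand-specific libraries. The question, as the series title puts it, is how loss of FBXW7 acts on mRNA levels. The labels do not say how the expressed RNAs act on their targets, nor whether the cells were 1 clone or a pool. Each condition has 3 samples described as independent biological replicates, and the p-values below measure the spread between those samples.

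FBXW7 is the F-box protein that picks substrates for an SCF-type ubiquitin ligase, in which CUL1, SKP1 and RBX1 form the core that brings a ubiquitin-loaded enzyme to the substrate. It binds substrates after they are phosphorylated, often by GSK3, and marks them for the proteasome. Known substrates include MYC, cyclin E, NOTCH1, MCL1 and SREBP proteins, so its removal acts first on protein stability, and mRNA levels respond through the transcription factors among the substrates. In plasma cells, whose work is antibody secretion, the stress pathways of protein folding and amino acid supply are active at rest.

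Total counts were 19410151, 17025436 and 19244203 in the gLuc libraries and 19085372, 16803332 and 19179032 in the gFBXW7 libraries. Levels are given as CPM, the reads of a gene scaled to the same total in every library with TMM correction, always in the order of libraries 1, 2 and 3. A level in CPM depends on transcript length, so genes named for the highest CPM of a list are those with the most reads, not those with the highest level per length (RPKM). Of 14 plasma cell markers 11 passed the filter on low counts. CD27, FCRL5 and CD79A did not, with at most 4, 7 and 3 reads in any of the 9 libraries. Rows whose symbols begin like those of immunoglobulin heavy and light chain genes held 0.00239% to 0.00283% of counts in these 6 libraries. This pick by symbol can take in other genes that begin alike, such as IGHMBP2, so the share is not a measure of immunoglobulin mRNA. The 3 markers with the highest CPM were abundant in all 6 libraries. JCHAIN, the joining chain of secreted immunoglobulin, lay between 9273 and 11442 CPM, XBP1, a factor of the secretory programme, between 866 and 1129 CPM, and IRF4, a plasma cell transcription factor, between 709 and 1070 CPM. Of 31 markers of T, myeloid, erythroid, epithelial and stromal cells, 3 passed the filter on low counts, and CD2, S100A8, S100A9, EPCAM and KRT8 had no read in any of the 9 libraries. The summed share of these markers ranged over 0.00268% to 0.00419% of counts for the control and 0.00365% to 0.00451% for gFBXW7. The beta-globin gene HBB made up most of it, with 39.9, 30.0 and 21.8 CPM in gLuc and 43.7, 34.0 and 36.2 CPM in gFBXW7.

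The FBXW7 transcript was not lower in the gFBXW7 libraries than in the control. FBXW7 (chromosome 4, 152320544 to 152536063, minus strand, GRCh38) had 53.8, 47.9 and 48.7 CPM in gLuc and 53.4, 55.5 and 54.8 CPM in gFBXW7. One gLuc library lay among the gFBXW7 libraries, and the log2 fold change was 0.12 (SE 0.18, adjusted p = 0.956 by edgeR's quasi-likelihood test). Counts over a whole gene do not show an edit that leaves the transcript in place, so they do not check the label. KMT2D, which is not targeted in these 6 libraries, had 41.0, 58.3 and 104 CPM in gLuc and 48.8, 65.1 and 59.1 CPM in gFBXW7, with the gFBXW7 libraries inside the range of the control. The partners of FBXW7 in the ligase were measured as well. Of 11 tested members of that list, 6 were higher and 5 lower in gFBXW7, and none had libraries that did not overlap. Its 3 members with the highest CPM were CUL1, the scaffold (369, 457 and 519 CPM in gLuc and 332, 388 and 412 CPM in gFBXW7), RBX1, the RING subunit (195, 144 and 118 against 202, 170 and 172 CPM), and SKP1, the adaptor (182, 142 and 108 against 204, 146 and 163 CPM).

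In the fit on groups alone no gene passed an adjusted p of 0.05 between gFBXW7 and gLuc among 13262 tested genes (0%). The smallest adjusted p was 0.956 (edgeR, Benjamini-Hochberg). At an unadjusted p under 0.05, 86 genes were higher (0.648%) and 123 lower (0.927%) in gFBXW7. Together they are 1.58% of tested genes, less than a threshold of 0.05 passes on average with no difference between groups. The DESeq2 Wald test called 1 gene, MTRNR2L8, with an adjusted p of 0.00376, and limma-voom called 0 (193 and 199 genes at an unadjusted p under 0.05). What follows is therefore a description of shifts, read against these background shares. A second description counts genes whose 3 gFBXW7 libraries all lay above all 3 gLuc libraries (580 genes, 4.37%) or all below (595 genes, 4.49%). For 3 against 3 libraries the smallest exact two-sided permutation p is 0.1. Part of all genes therefore separate in this way with no difference between groups, and the counts alone do not show an effect. The median log2 fold change of all genes was -0.0042, and the median absolute value was 0.15. In total 88 genes differed by at least 1 on the log2 scale in either direction.

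The control libraries differed from each other along gene length. In the quartile of shortest genes (up to 2278 bases in the table), the median deviation from the gLuc mean was 0.22, -0.03 and -0.19 in the gLuc libraries and 0.23, 0.14 and 0.12 in the gFBXW7 libraries (log2 scale). In the quartile of longest genes (6366 bases or more) it was -0.19, 0.02 and 0.18 in gLuc and -0.17, -0.10 and -0.08 in gFBXW7. The first gLuc library thus lay near the gFBXW7 libraries, and the other 2 lay away from them. Counts at an unadjusted p followed the libraries used. Without gLuc library 1 there were 389 higher and 466 lower genes, and without gLuc library 2, gLuc library 3 or gFBXW7 library 1 there were 39 to 47 higher and 61 to 65 lower. Without gFBXW7 library 2 there were 43 higher genes. Leaving out gFBXW7_gKMT2D library 3, which enters the filter, the scaling and the estimate of the spread but not the contrast, gave 176 and 326, and leaving out its library 2 gave 225 lower. In every one of these fits 0 genes passed the adjusted threshold. Genes without overlap numbered 3551 higher and 3652 lower once gLuc library 1 was left out, and between 783 and 1148 higher and between 873 and 1218 lower for the other libraries of both groups. The plot of gene lists gives each median also with the length trend of each library removed and with 1 surrogate variable, since short genes fill several of the groups, and the text gives these values for the groups that leaned most.

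**Figure D1:**
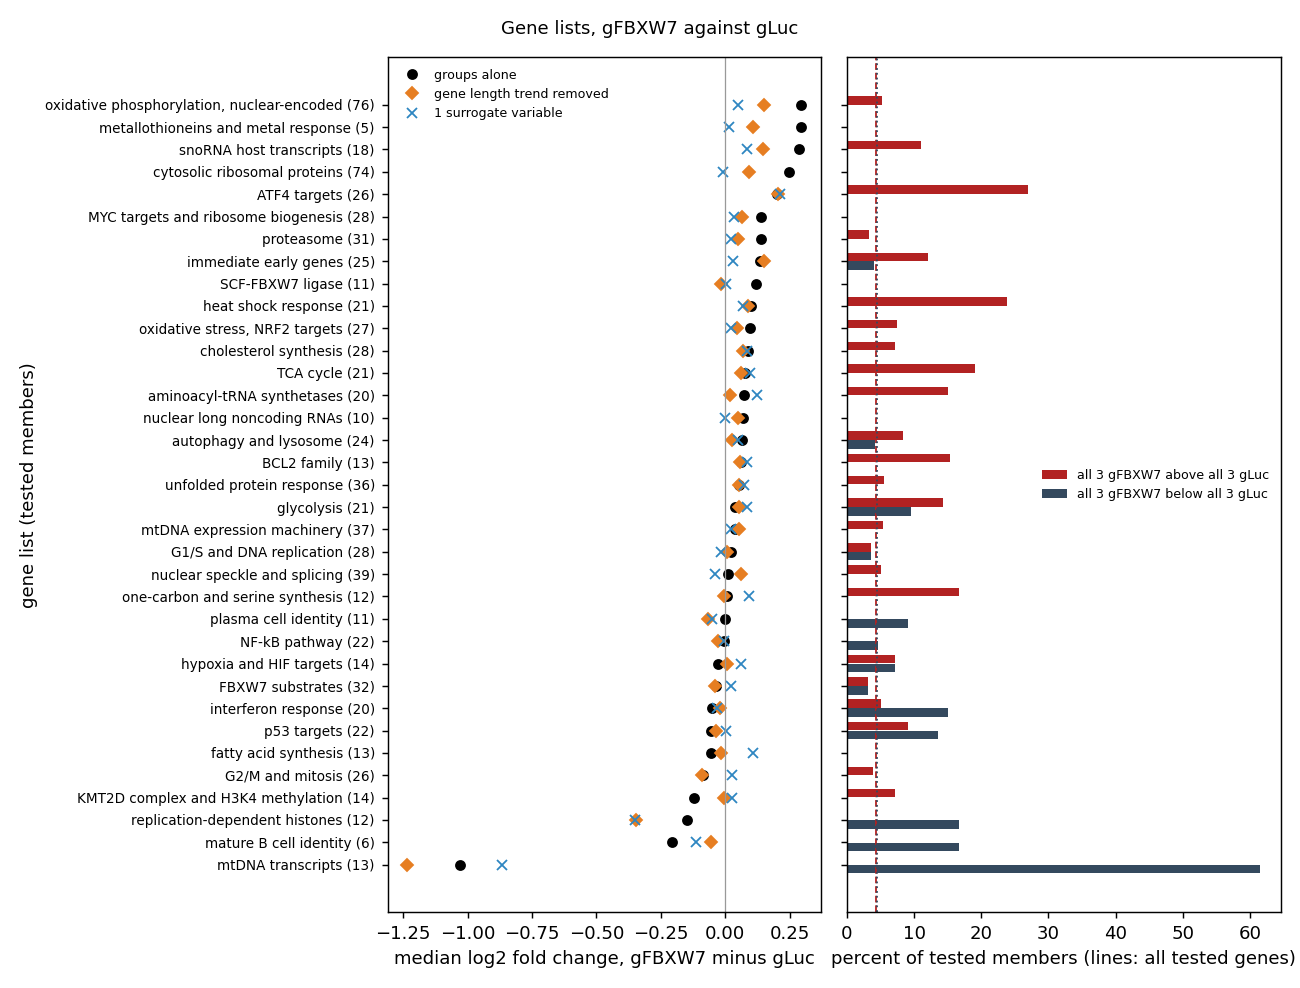
Gene lists in gFBXW7 against gLuc, with the number of tested members in parentheses. Left, the median log2 fold change of each list from the fit on groups alone, with the gene length trend removed and with 1 surrogate variable; right, the percent of tested members whose 3 gFBXW7 libraries all lie above or all below the 3 gLuc libraries, with lines at 4.37% and 4.49% for all tested genes. The list of mtDNA transcripts has the lowest median (-1.03), and the ATF4 targets have the largest share of members above (26.9%).

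All 13 protein-coding transcripts of mitochondrial DNA were lower in gFBXW7. These genes encode subunits of respiratory complexes I, III and IV and of ATP synthase, and they are transcribed as long precursors from both strands of a circular genome inside the organelle. The median log2 fold change was -1.03, with a range from -1.48 (ND4L) to -0.39 (ND3), so that mean levels were 36.0% to 76.1% of the control. Among the 13 genes, 10 were at an unadjusted p under 0.05, and 8 had gFBXW7 libraries all below the gLuc libraries (61.5%, against 4.49% of all genes). None passed the adjusted threshold in the edgeR fit on groups alone. With the replicate number as a block on the 6 libraries alone 11 of the 13 passed. With that block on all 9 libraries 0 genes passed. In all 13 genes each gFBXW7 library lay below the gLuc library of the same number. Whether these numbers pair the samples is not settled. The genes are named here as in the table, where COX1 stands for MT-CO1 and CYTB for MT-CYB, and the plot of their levels carries the MT- names.

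Of the 13 genes, COX1 and COX2 of complex IV had the smallest p. COX1 (mitochondrial genome 5904 to 7445), the catalytic subunit, had 3950, 5958 and 5957 CPM in gLuc (5288 ± 1159, SD, n = 3) and 1613, 3047 and 2975 CPM in gFBXW7 (2545 ± 808, SD, n = 3). Its log2 fold change was -1.06 (SE 0.30, unadjusted p = 0.00537 and adjusted p = 0.956 by edgeR). COX2 had 1834, 2821 and 2695 CPM in gLuc and 817, 1478 and 1490 CPM in gFBXW7 (log2 fold change -0.96, SE 0.27). COX3 had 1789, 3195 and 3528 CPM against 634, 1628 and 1673 CPM (log2 fold change -1.11, SE 0.40). For each of these 3 genes the lowest control, gLuc library 1, lay above the highest gFBXW7 library, while gFBXW7 library 1 was far below the other gFBXW7 libraries.

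Both ATP synthase transcripts had all gFBXW7 libraries below the control, with gFBXW7 library 1 lowest. ATP6 (mitochondrial genome 8527 to 9207), a subunit of the proton channel, had 1870, 3666 and 3709 CPM in gLuc and 456, 1600 and 1556 CPM in gFBXW7 (log2 fold change -1.36, SE 0.47). ATP8, which overlaps ATP6 on the mitochondrial genome, had 330, 362 and 277 CPM against 97.3, 212 and 176 CPM (log2 fold change -0.998, SE 0.39). Reads in such an overlap could be split between the genes by the counting. Complex III has a single mitochondrial gene, CYTB, with 800, 1702 and 2086 CPM in gLuc and 256, 823 and 888 CPM in gFBXW7 (log2 fold change -1.22, SE 0.49). There gLuc library 1 lay below 2 of the gFBXW7 libraries, so the groups overlapped.

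Of the 7 complex I transcripts, 4 were at an unadjusted p under 0.05. ND4, one of the 3 mitochondrial transcripts with the highest CPM, had 1930, 4247 and 4779 CPM in gLuc and 633, 1992 and 1980 CPM in gFBXW7 (log2 fold change -1.25, SE 0.51). ND4L, which overlaps ND4, had 90.6, 213 and 261 CPM against 55.5, 80.6 and 66.8 CPM (log2 fold change -1.48, SE 0.49). ND1 had 1187, 2043 and 2210 CPM against 447, 1155 and 1145 CPM (log2 fold change -0.99, SE 0.38). In ND4 gLuc library 1 lay below 2 gFBXW7 libraries, whereas ND4L and ND1 did not overlap. ND2 and ND5 had log2 fold changes of -0.91 (SE 0.39) and -1.03 (SE 0.46), both with overlap. ND3 had the smallest difference and the tightest groups, with 625, 676 and 605 CPM in gLuc and 465, 496 and 490 CPM in gFBXW7 (log2 fold change -0.39, SE 0.24, unadjusted p = 0.129 in edgeR). ND6, the only one of the 13 encoded on the minus strand, had 682, 841 and 939 CPM against 270, 689 and 682 CPM (log2 fold change -0.59, SE 0.32). The sources used here do not say whether counting took strand into account, so reads of ND6 and of the opposite strand may not be separated. The median of the 12 plus-strand genes was -1.04.

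**Figure D2:**
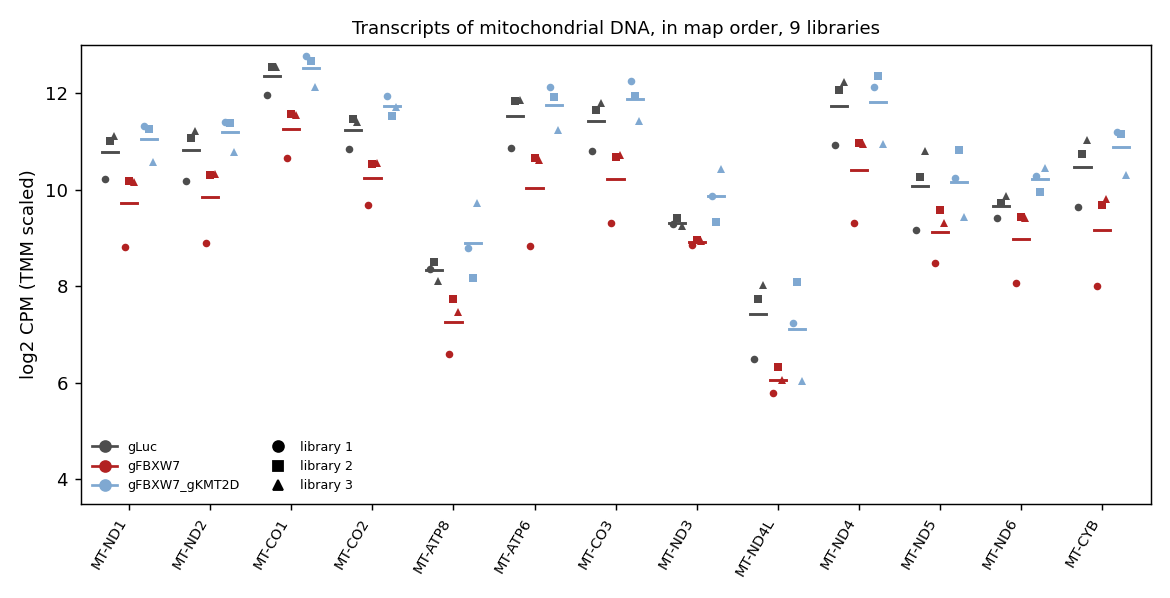
Levels of the 13 mitochondrial protein-coding transcripts as log2 CPM (vertical axis), in their order on the mitochondrial genome (horizontal axis). Each mark is 1 library, its shape gives the library number, and the bar is the mean of a group. The gFBXW7 marks lie lowest for most genes, and the gFBXW7_gKMT2D marks lie mostly among or above those of gLuc.

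As a share of all counts, mitochondrial transcripts made up 1.64%, 3.02% and 3.33% in gLuc (2.66% ± 0.902, SD, n = 3) and 0.638%, 1.52% and 1.54% in gFBXW7 (1.23% ± 0.516, SD, n = 3). All 3 gFBXW7 libraries were below all 3 gLuc libraries, and the lowest control exceeded the highest gFBXW7 library by little. The exact two-sided permutation test gave p = 0.1, below which a design of 3 against 3 cannot go. The 3 libraries of gFBXW7_gKMT2D, which carry the FBXW7 RNA as well, had 3.63%, 3.67% and 2.04%. The difference between gFBXW7 and gLuc was -1.43 percentage points, and it stayed between -1.94 and -1.10 when each of the 6 libraries was left out in turn. The median over the 13 genes was -1.23 with the length trend removed and -0.87 with 1 surrogate variable. The number at an unadjusted p depended on single libraries, with 4 of 13 without gLuc library 2 or gLuc library 3 and 5 of 13 without gFBXW7 library 1. In bulk RNA, fewer cells that carry a transcript and less of it per cell cannot be told apart.

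The nuclear genes that copy, process and translate mitochondrial RNA showed no such shift. Of 37 tested members of that list, 25 were higher and 12 lower, 0 were at an unadjusted p under 0.05 in edgeR, and the median log2 fold change was 0.04. The 3 with the highest CPM were TUFM, GRSF1 and LRPPRC. TUFM, the mitochondrial elongation factor, had 499, 388 and 360 CPM in gLuc and 539, 510 and 500 CPM in gFBXW7 (log2 fold change 0.31, SE 0.17), without overlap. GRSF1, a mitochondrial RNA granule protein, lay between 412 and 463 CPM in gLuc and between 406 and 488 CPM in gFBXW7. LRPPRC, which stabilises mitochondrial mRNA, lay between 368 and 403 CPM in gLuc and between 367 and 427 CPM in gFBXW7.

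Among the lower genes without overlap and with a mean log2 CPM of at least 3, MTRNR2L8 and MTRNR2L2 had the smallest p. Both are nuclear near-copies of the mitochondrial 16S ribosomal RNA gene, and reads of the mitochondrial gene may be counted in them, so their own levels are uncertain. MTRNR2L8 (chromosome 11, 10507887 to 10509189, minus strand) had 65.3, 93.3 and 97.6 CPM in gLuc and 40.5, 48.9 and 35.5 CPM in gFBXW7. The groups were apart, and the log2 fold change was -1.04 (SE 0.18, unadjusted p = 0.000227 and adjusted p = 0.956 by edgeR). MTRNR2L2 had 35.3, 40.6 and 36.7 CPM against 24.7, 22.5 and 12.4 CPM (log2 fold change -0.92, SE 0.22). With the replicate number as a block on the 6 libraries alone, the adjusted p in edgeR was 0.000273 for MTRNR2L8 and 0.00335 for MTRNR2L2. With that block on all 9 libraries 0 genes passed the adjusted threshold.

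Among nuclear noncoding RNAs, MALAT1 was higher in gFBXW7 on average, with overlap. MALAT1 (chromosome 11, 65497688 to 65506516, plus strand), which is retained in nuclear speckles, had 1969, 1184 and 901 CPM in gLuc and 2901, 2055 and 1842 CPM in gFBXW7. The second gFBXW7 library lay just above gLuc library 1 and the third below it, and the log2 fold change was 0.75 (SE 0.54, unadjusted p = 0.195 in edgeR). With the replicate number as a block on the 6 libraries alone, MALAT1 had a log2 fold change of 0.79 (adjusted p = 0.00323 in edgeR). With that block on all 9 libraries 0 genes passed the adjusted threshold. As a share of counts MALAT1 was 0.191%, 0.123% and 0.0961% in gLuc and 0.281%, 0.206% and 0.188% in gFBXW7 (exact two-sided permutation p = 0.2). The gFBXW7_gKMT2D libraries spread from 1045 to 5565 CPM. NEAT1, the scaffold of paraspeckles, had 275, 263 and 257 CPM in gLuc and 286, 288 and 252 CPM in gFBXW7 (exact two-sided permutation p = 0.8 for its share). NORAD, which binds PUMILIO proteins, had 281, 334 and 367 CPM against 307, 285 and 325 CPM. None of the 10 tested nuclear long noncoding RNAs had groups without overlap or an unadjusted p under 0.05 in the edgeR fit on groups alone.

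Host transcripts of small nucleolar RNAs were mostly higher in gFBXW7. Of 18 tested members 17 were higher, with a median log2 fold change of 0.29, but 2 had libraries without overlap (11.1%, against 4.37% of all genes) and 0 were at an unadjusted p under 0.05 in edgeR. LRRC75A-AS1, also named SNHG29, had 827, 687 and 567 CPM in gLuc and 950, 928 and 857 CPM in gFBXW7 (log2 fold change 0.39, SE 0.21), without overlap. RMRP, the RNA of a ribonuclease complex, stands on the list without being a host of small nucleolar RNAs. Named after its values were seen, it was the other member without overlap, at the low level of 1.43, 1.13 and 1.27 against 1.84, 1.78 and 2.90 CPM (log2 fold change 0.77, SE 0.40). The share of 11.1% therefore counts a gene that is not a host, and LRRC75A-AS1 was the only host without overlap. SNHG1 (156, 166 and 162 against 155, 177 and 174 CPM) and DANCR (139, 138 and 140 against 125, 140 and 150 CPM) overlapped. The list median was 0.15 with the length trend removed and 0.09 with 1 surrogate variable. Splicing and speckle proteins were evenly placed, with 22 of 39 higher and a median of 0.01. Their members with the highest CPM were HNRNPA2B1 (2283 to 2542 CPM in gLuc and 2426 to 2597 CPM in gFBXW7), HNRNPU (1505 to 1713 against 1441 to 1654 CPM) and SRSF3 (603 to 937 against 761 to 964 CPM).

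**Figure D3:**
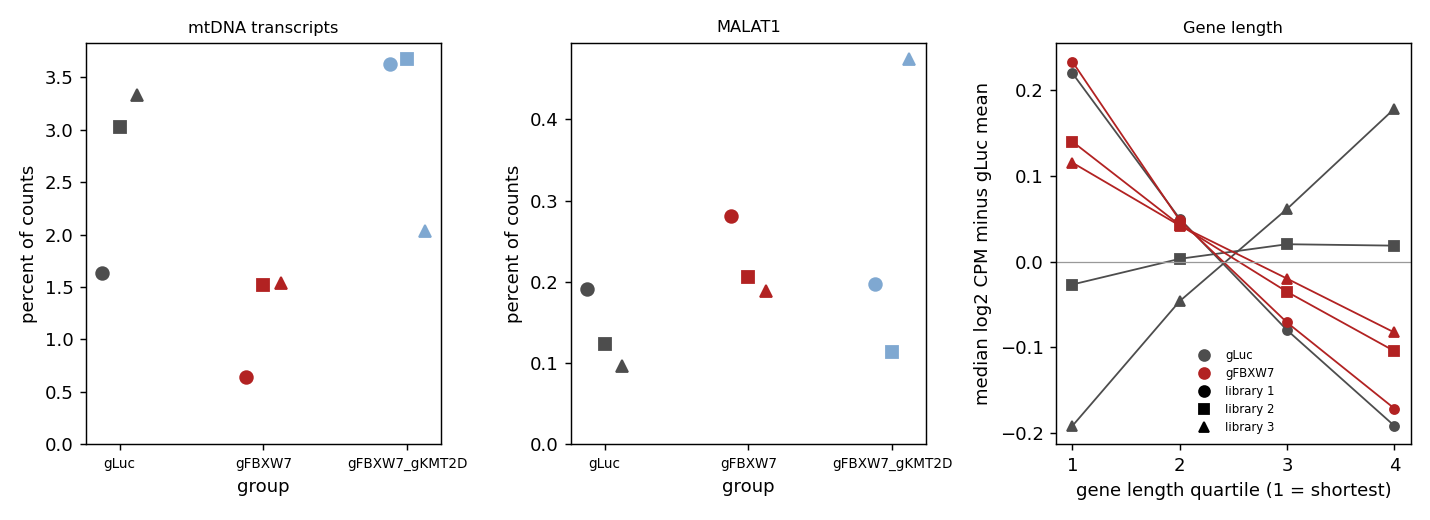
Percent of counts in mtDNA transcripts (left) and in MALAT1 (middle) for each library of the 3 groups, and the median log2 CPM deviation from the gLuc mean for 4 quartiles of gene length (right, gLuc and gFBXW7 libraries). The mtDNA share spans 1.64% to 3.33% for gLuc and 0.638% to 1.54% for gFBXW7, and gLuc library 1 lies with the gFBXW7 libraries in the length panel.

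Stress genes under the transcription factor ATF4 were the group with the largest share of members above the control. All gene lists were chosen with earlier results of these data known, so this rank is a description and not a test. ATF4 is translated when the kinases of the integrated stress response slow general protein synthesis, on amino acid shortage, unfolded protein or mitochondrial stress, and it then switches on genes of amino acid supply and of stress signalling. Of 31 listed genes 26 were tested, of which 21 were higher and 5 lower in gFBXW7, with a median log2 fold change of 0.20. In 7 genes (26.9%, against 4.37% of all genes) all gFBXW7 libraries lay above all gLuc libraries, and in 0 all lay below. At an unadjusted p under 0.05 there were 4 genes, all higher (15.4%, against 0.648%). The median was 0.20 with the length trend removed and 0.21 with 1 surrogate variable.

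The 4 genes that were higher at an unadjusted p are DDIT4, CHAC1, DDIT3 and ASNS, and their RefSeq promoters (GRCh38.p14) are printed below from 250 bases before to 50 after the gene start, 5′ to 3′ on the strand of the gene. Capitals mark matches to TGATGNAA, the common core of C/EBP-ATF response elements that ATF4 binds with a C/EBP partner, searched on both strands. The windows are chr7:97872359-97872658 (ASNS, minus strand), chr15:40953221-40953520 (CHAC1, plus strand), chr12:57520465-57520764 (DDIT3, minus strand) and chr10:72273674-72273973 (DDIT4, plus strand).
ASNS: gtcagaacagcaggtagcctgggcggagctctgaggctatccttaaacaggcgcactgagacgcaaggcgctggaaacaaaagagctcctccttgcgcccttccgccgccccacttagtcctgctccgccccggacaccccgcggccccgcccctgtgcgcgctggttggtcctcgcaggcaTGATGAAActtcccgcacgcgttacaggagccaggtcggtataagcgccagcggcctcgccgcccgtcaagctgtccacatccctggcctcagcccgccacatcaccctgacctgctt
CHAC1: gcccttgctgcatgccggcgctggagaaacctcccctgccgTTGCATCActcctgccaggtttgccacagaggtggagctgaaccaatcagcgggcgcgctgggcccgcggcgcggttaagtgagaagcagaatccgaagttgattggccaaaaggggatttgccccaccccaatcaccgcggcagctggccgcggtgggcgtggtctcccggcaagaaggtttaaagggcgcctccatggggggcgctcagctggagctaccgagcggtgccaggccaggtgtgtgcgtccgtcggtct
DDIT3: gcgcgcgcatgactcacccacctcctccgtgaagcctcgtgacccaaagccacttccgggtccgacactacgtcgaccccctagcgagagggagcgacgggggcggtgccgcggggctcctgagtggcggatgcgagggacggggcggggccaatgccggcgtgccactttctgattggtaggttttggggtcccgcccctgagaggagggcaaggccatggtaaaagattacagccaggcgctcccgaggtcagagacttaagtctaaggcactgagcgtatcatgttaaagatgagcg
DDIT4: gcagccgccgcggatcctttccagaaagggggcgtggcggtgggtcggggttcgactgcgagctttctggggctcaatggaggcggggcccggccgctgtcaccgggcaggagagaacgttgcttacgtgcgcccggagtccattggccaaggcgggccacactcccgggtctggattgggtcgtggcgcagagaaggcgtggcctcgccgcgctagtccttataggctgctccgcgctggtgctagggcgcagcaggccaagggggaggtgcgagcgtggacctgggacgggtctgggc
The match starts 68 bases before the RefSeq gene start in ASNS and 209 bases before it in CHAC1, where it is on the opposite strand. The RefSeq starts differ from the ends of the GENCODE gene spans given with the genes below, which reach further upstream for both, so that both matches lie inside those spans. DDIT3 and DDIT4 hold no match in this window. A match was held by 5 of the 23 tested list members that have a RefSeq promoter (21.7%), against 3.67% of all 27305 promoter windows and 1.63% of the 9370 windows of tested genes. The remaining 3 are ATF3, SLC3A2 and SLC7A1, shown as the match with 11 bases on either side or up to the end of the window, because they carry the same letters and their libraries overlapped.
ATF3: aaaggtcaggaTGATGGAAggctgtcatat
SLC3A2: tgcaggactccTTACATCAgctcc
SLC7A1: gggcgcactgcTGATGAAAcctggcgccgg
These letters are a description of the sequence and not a measured site, and the list was assembled from known ATF4 targets.

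Stress effectors of the list included the gene with the smallest p. DDIT4 (chromosome 10, 72273920 to 72276036, plus strand), whose protein REDD1 restrains mTORC1, had 122, 101 and 86.6 CPM in gLuc (103 ± 18.0, SD, n = 3) and 154, 155 and 138 CPM in gFBXW7 (149 ± 9.71, SD, n = 3). Its log2 fold change was 0.53 (SE 0.16, unadjusted p = 0.00698 and adjusted p = 0.956 by edgeR). With the replicate number as a block on the 6 libraries alone, its adjusted p was 0.0378 in edgeR. With that block on all 9 libraries 0 genes passed the adjusted threshold. TRIB3, a pseudokinase that dampens AKT and ATF4 signalling, had 36.9, 41.6 and 30.8 CPM against 47.5, 46.9 and 41.6 CPM (log2 fold change 0.32, SE 0.15). Both genes had all gFBXW7 libraries above the control, with the highest control close to the lowest gFBXW7 library in TRIB3. TRIB3, GPT2 and CEBPG are named here after their values were seen.

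The transcription factors of the list were all higher on average (6 of 6). DDIT3 (chromosome 12, 57516588 to 57521737, minus strand), which encodes CHOP, had 14.2, 13.2 and 9.11 CPM in gLuc and 18.4, 18.9 and 16 CPM in gFBXW7 (log2 fold change 0.55, SE 0.19). CEBPG, a C/EBP partner of ATF4, had 81.0, 87.6 and 82.4 CPM against 89.1, 92.0 and 88.7 CPM. ATF4 itself had 1025, 878 and 712 CPM in gLuc and 1122, 1102 and 1007 CPM in gFBXW7 (log2 fold change 0.30, SE 0.18), with gLuc library 1 inside the gFBXW7 range. The first 2 did not overlap between groups, and DDIT3 was lowest in gLuc library 3.

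Enzymes and transporters of amino acids were mixed, with 10 of 14 higher. CHAC1 (chromosome 15, 40952962 to 40956519, plus strand), which degrades glutathione, had 20.2, 22.4 and 17.8 CPM in gLuc and 27.2, 28.4 and 26.3 CPM in gFBXW7 (log2 fold change 0.44, SE 0.14, unadjusted p = 0.0101 in edgeR). ASNS (chromosome 7, 97852118 to 97872542, minus strand), asparagine synthetase, had 114, 128 and 107 CPM against 147, 150 and 136 CPM (log2 fold change 0.31, SE 0.13). GPT2, the mitochondrial alanine transaminase, had 116, 127 and 116 CPM against 148, 160 and 144 CPM (log2 fold change 0.33, SE 0.22). In these 3 genes the groups did not overlap. The transporters with the highest CPM did overlap. SLC1A5, which carries glutamine, had 1258, 1152 and 1127 CPM in gLuc and 1426, 1527 and 1253 CPM in gFBXW7 (log2 fold change 0.25, SE 0.17). SLC7A5, the light chain of the large neutral amino acid exchanger, had 359, 473 and 495 CPM against 390, 468 and 458 CPM. The count at an unadjusted p was 2 of 26 without gLuc library 3 and without gFBXW7 library 2.

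**Figure D4:**
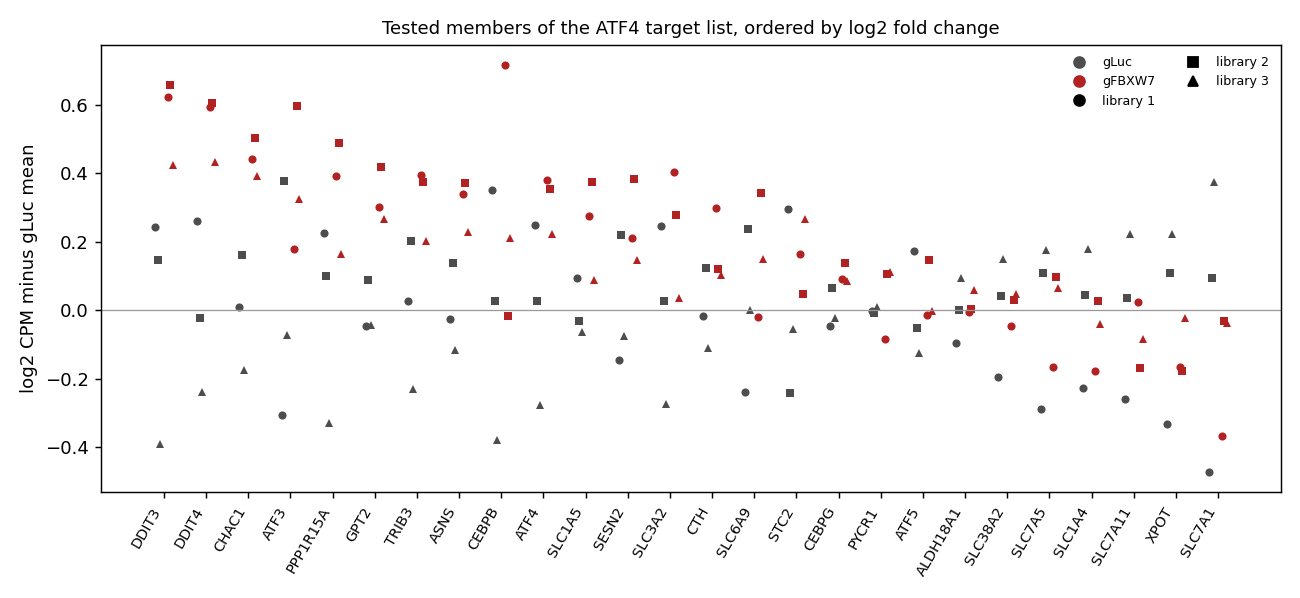
The 26 tested ATF4 list members, ordered by log2 fold change (horizontal axis), with each gLuc and gFBXW7 library as its log2 CPM minus the gLuc mean of that gene (vertical axis). For the 7 members without overlap, which include DDIT3, DDIT4 and CHAC1, every gFBXW7 mark lies above every gLuc mark.

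The gFBXW7_gKMT2D libraries gave other values for the same genes. DDIT4 had 124, 104 and 98.4 CPM there, CHAC1 29.3, 27.9 and 23.3 CPM, DDIT3 19.3, 14.4 and 17.4 CPM and ASNS 153, 135 and 119 CPM. All of these lie within or between the ranges of the 2 groups described above, except for the highest libraries of CHAC1, DDIT3 and ASNS. Comparisons of these libraries with gLuc share the control libraries with the comparison made here.

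Related groups of amino acid metabolism had medians nearer to 0. Of 20 cytosolic aminoacyl-tRNA synthetases, which charge tRNAs, 13 were higher, with a median log2 fold change of 0.07 and 3 without overlap above (15.0%, against 4.37%). AARS had 892, 881 and 870 CPM in gLuc and 925, 1037 and 925 CPM in gFBXW7, without overlap. EPRS lay between 613 and 780 CPM in gLuc and between 698 and 727 CPM in gFBXW7, and SARS between 585 and 731 and between 697 and 834 CPM. Of 12 enzymes of serine and one-carbon metabolism 6 were higher, with a median of 0.01 and 2 without overlap above (16.7%). SHMT2, the mitochondrial serine hydroxymethyltransferase, had 386, 373 and 324 CPM against 434, 427 and 417 CPM, without overlap. MTHFD2, its mitochondrial partner enzyme, had 480, 512 and 454 CPM against 563, 497 and 537 CPM. PAICS, of purine synthesis, had 443, 509 and 554 CPM against 435, 474 and 492 CPM.

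Cytosolic chaperones were slightly higher. Of 21 tested genes of the heat shock list 18 were higher in gFBXW7, with a median log2 fold change of 0.10, and 5 had all gFBXW7 libraries above the control (23.8%, against 4.37%). AHSA1, which activates the ATPase of HSP90, was the one at an unadjusted p under 0.05 in edgeR, with 237, 218 and 209 CPM in gLuc and 262, 270 and 281 CPM in gFBXW7 (log2 fold change 0.29, SE 0.12). Leaving out gLuc library 2 or 3, any gFBXW7 library or gFBXW7_gKMT2D library 1 left 0 of the 21 at that p. HSPA1B, the inducible HSP70 gene with a near-identical copy, named after its values were seen, had 11.1, 7.35 and 6.38 CPM against 12.3, 13.7 and 12.8 CPM (log2 fold change 0.65, SE 0.30). HSPA8, the constitutive HSP70, had 2595, 2561 and 2750 CPM against 2762, 2850 and 2860 CPM, a separation that was small beside its level. HSP90AA1 (2653 to 3992 CPM in gLuc and 3799 to 4501 CPM in gFBXW7) and HSP90AB1 (1894 to 2560 against 2297 to 2589 CPM) overlapped. The factor HSF1 had 55.4, 52.5 and 52.8 CPM against 50.3, 53 and 45.8 CPM.

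Genes of the unfolded protein response in the endoplasmic reticulum were near the background. Of 36 tested 23 were higher, with a median of 0.05, and 2 (5.56%) were without overlap above. HSP90B1 lay between 1558 and 2261 CPM in gLuc and between 1882 and 2380 CPM in gFBXW7, CALR between 1223 and 1855 and between 1564 and 1934 CPM, and HSPA5, the chaperone BiP, between 860 and 1136 and between 1019 and 1259 CPM. Targets of NRF2, the factor of oxidative stress, were higher in 22 of 27 cases, with a median of 0.10 (0.05 with the length trend removed and 0.02 with 1 surrogate variable). FTL, the ferritin light chain, lay between 1133 and 1795 CPM in gLuc and between 1523 and 1979 CPM in gFBXW7, TXN, thioredoxin, between 228 and 436 and between 353 and 512 CPM, and TKT, transketolase, between 320 and 346 and between 289 and 351 CPM.

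Immediate early genes, which respond to growth signals and stress within minutes, were higher in 18 of 25 cases, with a median of 0.14 (0.03 with 1 surrogate variable). JUNB (chromosome 19, 12791496 to 12793315, plus strand), an AP-1 subunit, had 28.1, 22.2 and 22.1 CPM in gLuc and 33.0, 32.4 and 33.6 CPM in gFBXW7 (log2 fold change 0.45, SE 0.19). IER2 had 93.6, 78.1 and 67.5 CPM against 102, 111 and 96.0 CPM (log2 fold change 0.37, SE 0.16). EGR1, a zinc finger factor, was at a low level, with 0.954, 1.70 and 0.975 CPM against 2.32, 2.38 and 1.58 CPM (log2 fold change 0.80, SE 0.34). These 3 of 25 (12%, against 0.648% of all genes) were at an unadjusted p under 0.05 in edgeR, and EGR1 overlapped between groups. Higher members at that p numbered 0 without gLuc library 3, gFBXW7 library 1 or gFBXW7 library 2, and 1 without gLuc library 2. Members with the highest CPM overlapped or were lower. KLF6 had 323, 257 and 207 CPM against 323, 284 and 259 CPM, and BTG2 256, 282 and 285 CPM against 231, 265 and 273 CPM. MYC had 276, 291 and 294 CPM against 212, 250 and 269 CPM (log2 fold change -0.23, SE 0.13), with every gFBXW7 library below the control.

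Of 22 p53 targets 9 were higher and 13 lower, with a median of -0.05. CDKN1A (chromosome 6, 36676460 to 36687339, plus strand), the cell cycle inhibitor p21, had 1.48, 1.19 and 1.32 CPM in gLuc and 2.05, 2.38 and 1.83 CPM in gFBXW7 (log2 fold change 0.65, SE 0.26). BBC3, the death-promoting protein PUMA, had 1.43, 1.36 and 0.975 CPM against 2.05, 2.20 and 1.58 CPM (log2 fold change 0.63, SE 0.26). Both were at an unadjusted p under 0.05 in edgeR, without overlap and at a low level. Without overlap below the control lay 3 of the 22 (13.6%, against 4.49%), and 2 above it (9.09%, against 4.37%). MDM2, one of the lower ones, and CCNG1 had high CPM, with MDM2 at 119, 125 and 131 CPM against 111, 110 and 115 CPM, and CCNG1 at 299, 277 and 257 CPM against 268, 226 and 247 CPM. In the BCL2 family 8 of 13 were higher, with a median of 0.06 and 2 without overlap above (15.4%). BAK1, a pore former, had 98.5, 90.0 and 87.6 CPM against 100, 113 and 105 CPM, without overlap, while MCL1 (462, 501 and 518 against 488, 445 and 481 CPM) and BCL2 (60.6, 77.7 and 92.7 against 68.9, 72.4 and 76.3 CPM) overlapped.

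Nuclear genes of oxidative phosphorylation leaned the opposite way to the mitochondrial ones. Of 76 tested subunits 74 were higher in gFBXW7, with a median log2 fold change of 0.30, but 4 were without overlap (5.26%, near the background) and 0 were at an unadjusted p under 0.05 in edgeR. By complex, 35 of 37 for complex I, 4 of 4 for complex II, 9 of 9 for complex III, 11 of 11 for complex IV and 15 of 15 for ATP synthase were higher. The median deviation of the list from the gLuc mean was 0.40, -0.06 and -0.35 in the gLuc libraries and 0.49, 0.23 and 0.23 in the gFBXW7 libraries, so the control libraries spread over more than the difference. With the length trend removed the median was 0.15, and with 1 surrogate variable 0.05. ATP5B, the catalytic beta subunit of ATP synthase, had 1185, 1137 and 1082 CPM in gLuc and 1276, 1297 and 1246 CPM in gFBXW7, without overlap. ATP5A1 had 1230, 1095 and 1021 CPM against 1341, 1213 and 1179 CPM, and UQCRH 1044, 693 and 555 CPM against 898, 875 and 848 CPM.

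Cytosolic ribosomal protein transcripts, which are short as well, had the same spread. Of 74 tested 73 were higher, with a median of 0.25, and 0 were without overlap. They made up 8.13%, 6.04% and 4.92% of counts in gLuc and 8.47%, 7.35% and 6.67% in gFBXW7 (exact two-sided permutation p = 0.4). The median was 0.09 with the length trend removed and -0.01 with 1 surrogate variable. RPLP0 had 4922, 3223 and 2579 CPM in gLuc and 5239, 4161 and 3507 CPM in gFBXW7 and RPS6 4431, 2760 and 2123 CPM against 4727, 3596 and 3066 CPM. Proteasome subunits were higher in 27 of 31 cases, with a median of 0.14 (0.05 with the length trend removed). PSMD7 lay between 524 and 806 CPM in gLuc and between 699 and 768 CPM in gFBXW7, PSMB4 between 452 and 727 and between 647 and 826 CPM, and PSMB3 between 278 and 516 and between 424 and 508 CPM.

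Medians of central carbon metabolism were near 0. Of 21 tricarboxylic acid cycle and pyruvate dehydrogenase genes 13 were higher, with a median of 0.08, and 4 were without overlap above (19.0%, against 4.37%). PDHA1, the catalytic subunit of pyruvate dehydrogenase, had 285, 247 and 224 CPM in gLuc and 328, 311 and 297 CPM in gFBXW7 (log2 fold change 0.31, SE 0.13, unadjusted p = 0.0458 in edgeR). MDH1 lay between 379 and 638 CPM in gLuc and between 531 and 708 CPM in gFBXW7, and FH, fumarase, between 257 and 284 and between 268 and 284 CPM. Of 21 glycolysis genes 14 were higher, with a median of 0.04, and 3 lay without overlap above (14.3%, against 4.37%) and 2 below (9.52%, against 4.49%). GAPDH (3424, 3492 and 3531 against 3094, 3942 and 3578 CPM), ENO1 (2326, 2288 and 2199 against 2277, 2457 and 2154 CPM) and ALDOA (1797, 1601 and 1458 against 1772, 1853 and 1653 CPM) overlapped. PDK1, which switches off pyruvate dehydrogenase and is named after its values were seen, had 230, 244 and 245 CPM against 215, 202 and 202 CPM (log2 fold change -0.22, SE 0.12), without overlap. Of 14 targets of hypoxia-inducible factor 7 were higher, with a median of -0.03. DDIT4 is among them, while ERO1A (80.9, 103 and 115 against 80.2, 86.1 and 97.2 CPM) and EGLN1 (54.2, 64.9 and 70.4 against 55.6, 53.7 and 63.0 CPM) overlapped.

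Of 28 genes of cholesterol synthesis 21 were higher, with a median of 0.09 and 2 without overlap above (7.14%, against 4.37%). INSIG1 lay between 1279 and 1621 CPM in gLuc and between 1427 and 1725 CPM in gFBXW7, SREBF2, which encodes the sterol-sensing factor SREBP2, between 638 and 734 and between 658 and 689 CPM, and FDPS between 505 and 676 and between 638 and 750 CPM. Fatty acid synthesis leaned lower, with 10 of 13 genes lower, a median of -0.06 and 0 without overlap. SCD lay between 1260 and 1666 CPM in gLuc and between 1299 and 1500 CPM in gFBXW7, FASN between 597 and 778 and between 591 and 692 CPM, and ACLY between 189 and 266 and between 193 and 231 CPM.

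Genes for known protein substrates of FBXW7 were measured at the mRNA level only. Of 32 tested 10 were higher and 22 lower, with a median of -0.04, and 1 lay without overlap in each direction (3.12%), which is under the background. MYC was the lower one, and RCAN1, a calcineurin regulator named after its values were seen, was the higher one (26.4, 27.4 and 24.3 against 29.8, 28.2 and 28.0 CPM). XBP1 and SREBF2, given above, and TOP2A (484, 500 and 532 against 512, 474 and 496 CPM) had the highest CPM and overlapped. MYC targets of ribosome biogenesis were higher in 19 of 28 cases, with a median of 0.14 (0.03 with 1 surrogate variable) and 0 without overlap. NCL lay between 2319 and 2894 CPM in gLuc and between 2611 and 3055 CPM in gFBXW7, ODC1 between 977 and 1321 and between 1140 and 1415 CPM, and NPM1 between 685 and 1029 and between 864 and 1073 CPM.

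Cell cycle genes were near the background. Of 28 genes of the G1/S transition and DNA replication 16 were higher, with a median of 0.02, and of 26 genes of G2/M and mitosis 10 were higher, with a median of -0.09. CCND2, a D-type cyclin, had 1354, 1539 and 1813 CPM in gLuc and 1310, 1562 and 1607 CPM in gFBXW7. MCM4 lay between 610 and 668 CPM and between 634 and 657 CPM, and RRM2 between 601 and 647 and between 570 and 640 CPM. MKI67 had 216, 323 and 548 CPM against 217, 292 and 302 CPM, and CENPF 318, 402 and 515 CPM against 361, 361 and 371 CPM. Replication-dependent histone genes, whose mRNAs mostly lack a poly(A) tail and are thinly sampled in these libraries, were lower in 10 of 12 cases, with a median of -0.15 and 2 without overlap below (16.7%, against 4.49%). HIST1H2BJ had 0.795, 1.07 and 1.12 CPM in gLuc and 0.540, 0.654 and 0.611 CPM in gFBXW7 (log2 fold change -0.72, SE 0.26, unadjusted p = 0.0205 in edgeR). HIST1H1C (44.2, 32.1 and 24.7 against 33.2, 31.0 and 29.3 CPM), HIST2H2AA3 (25.4, 19.6 and 14.2 against 21.3, 17.8 and 15.7 CPM) and HIST1H2BK (8.27, 12 and 10.7 against 7.35, 8.45 and 9.63 CPM) overlapped. The list median was -0.35 both with the length trend removed and with 1 surrogate variable.

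Of 20 interferon response genes 9 were higher, with a median of -0.05, and 3 lay without overlap below (15.0%, against 4.49%) and 1 above (5%, against 4.37%). MX1, an antiviral GTPase, had 3.60, 3.17 and 3.90 CPM in gLuc and 2.11, 2.62 and 2.39 CPM in gFBXW7 (log2 fold change -0.59, SE 0.22). IRF1, an interferon-regulated transcription factor, had 33.5, 31.7 and 31.5 CPM against 38.4, 38.4 and 40.6 CPM (log2 fold change 0.28, SE 0.12). Both were at an unadjusted p under 0.05 in edgeR and without overlap, in opposite directions. BST2 (169, 108 and 92.1 against 190, 170 and 159 CPM) and SP100 (51.8, 43.6 and 38.6 against 54.8, 49.6 and 49.2 CPM) overlapped. Of 22 genes of the NF-kB pathway 11 were higher, and BIRC3 was the member without overlap, with 424, 480 and 514 CPM against 421, 384 and 420 CPM (log2 fold change -0.21, SE 0.16). IL2RG (413, 460 and 406 against 393, 468 and 421 CPM) and TNFRSF17, the surface antigen BCMA (509, 358 and 268 against 539, 387 and 392 CPM), overlapped. Of 11 plasma cell genes 5 were higher, with a median of -0.00093. In the remaining lists 15 of 24 genes of autophagy and lysosome (median 0.07), 3 of 5 metallothionein and metal response genes (median 0.30, and 0.02 with 1 surrogate variable), 2 of 6 mature B cell genes (median -0.21) and 4 of 14 genes of the KMT2D complex and H3K4 methylation (median -0.12, and -0.0042 with the length trend removed) were higher.

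Across all genes with a mean log2 CPM of at least 3, 367 lay without overlap above the control and 320 below. The 12 with the smallest p among the higher ones include DDIT4, CHAC1 and DDIT3, given above. SDC2, a cell surface heparan sulfate proteoglycan of the syndecan family, had the smallest p, with 3.71, 4.24 and 4.14 CPM in gLuc (4.03 ± 0.282, SD, n = 3) and 8.16, 5.29 and 8.20 CPM in gFBXW7 (7.22 ± 1.67, SD, n = 3). Its log2 fold change was 0.84 (SE 0.21, unadjusted p = 0.00247 and adjusted p = 0.956 by edgeR). All gFBXW7 libraries lay above the control, with library 2 lower than the other 2, and the gFBXW7_gKMT2D libraries had 27.7, 24.9 and 34.7 CPM. NOG (chromosome 17, 56593699 to 56595590, plus strand), the secreted BMP antagonist noggin, had 11.7, 12.2 and 8.28 CPM against 19.3, 17.1 and 15.8 CPM (log2 fold change 0.70, SE 0.20). With the replicate number as a block on the 6 libraries alone, its adjusted p was 0.016 in edgeR. With that block on all 9 libraries 0 genes passed the adjusted threshold. DUSP5 (chromosome 10, 110497838 to 110511544, plus strand), a nuclear phosphatase of ERK, had 32.8, 33.2 and 25.6 CPM against 42.6, 40.0 and 39.5 CPM (log2 fold change 0.41, SE 0.14).

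Other higher genes had smaller differences. EDEM2, a mannosidase that marks misfolded glycoproteins for disposal, had 25.3, 23.3 and 21.0 CPM in gLuc and 30.0, 29.3 and 28.7 CPM in gFBXW7 (log2 fold change 0.34, SE 0.12). SLC4A5, a sodium bicarbonate cotransporter, had 23.4, 21.0 and 17.5 CPM against 30.3, 24.5 and 30.0 CPM (log2 fold change 0.45, SE 0.16). In both the lowest gFBXW7 library was above the highest control. THEM6 (12.3, 9.38 and 8.82 against 14.3, 13.5 and 13.5 CPM), LOC100506123 (10.2, 8.93 and 7.26 against 12.9, 10.9 and 12 CPM) and NPIPB4 (18.8, 17.6 and 21.0 against 27.4, 25.9 and 22.1 CPM) had log2 fold changes of 0.44, 0.44 and 0.39. NPIPB4 belongs to a family of near-identical copies on chromosome 16, so its reads may be split among them.

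Of the 12 lower genes 5 are mitochondrial transcripts (COX1, COX2, COX3, ATP6 and ND4L) and 2 are the MTRNR2L copies. The remaining 5 were lower by less. AMPD1 (chromosome 1, 114673090 to 114695618, minus strand), an AMP deaminase of the purine nucleotide cycle, had 34.0, 36.1 and 35.7 CPM in gLuc and 24.2, 25.8 and 29.1 CPM in gFBXW7 (log2 fold change -0.42, SE 0.15). ZNF493, a zinc finger gene of chromosome 19, had 9.70, 10.9 and 11.8 CPM against 7.56, 7.79 and 8.66 CPM (log2 fold change -0.43, SE 0.16). LINC00461, a long noncoding RNA of chromosome 5, had 8.96, 11.4 and 9.26 CPM against 6.81, 7.20 and 7.90 CPM (log2 fold change -0.43, SE 0.16). LOC107984507 (13.7, 15.2 and 15.9 against 11.2, 12.2 and 10.6 CPM) and LOC441666 (9.12, 10.3 and 10.3 against 7.78, 7.14 and 7.49 CPM) had log2 fold changes of -0.40 and -0.41. In AMPD1 the gFBXW7_gKMT2D libraries, at 29.1, 35.2 and 24.0 CPM, spanned both groups.

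**Figure D5:**
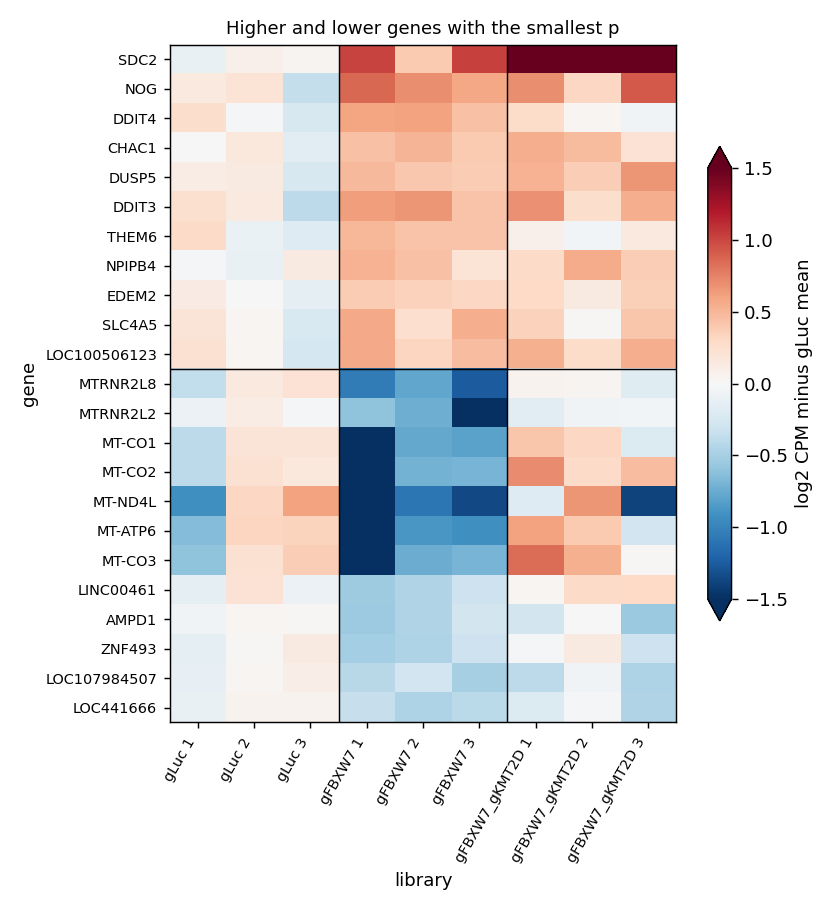
Of the 12 higher and 12 lower genes with the smallest p, those described in the text, all without overlap and with a mean log2 CPM of at least 3 (rows), in the 9 libraries (columns). Colour gives log2 CPM minus the gLuc mean, red above and blue below, limited to 1.5 in either direction. Per length, mean RPKM was 1.12 in gLuc and 1.95 in gFBXW7 for SDC2, 60.1 and 84.9 for DDIT4, and 3542 and 1655 for COX1.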

How the data were processed

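RNA sequencing counts per gene of 9 OPM-1 libraries (3 per group) and the matching RPKM values were used as deposited by the authors, in 1 table. The submitters' processing notes name Trimmomatic, STAR, featureCounts and DESeq2 with GRCh38, without versions used here, and no strand setting of the counting is given in the sources used here. RPKM, deposited by the authors, was used for levels per length and for 1 alternative. A row of totals without a name was dropped, and 12580 of 38478 gene rows had no read.

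Genes were filtered with filterByExpr by group (13262 tested), scaled by TMM and fitted with edgeR 4.0.16 (glmQLFit and glmQLFTest, R 4.3.3) on all 9 libraries with group alone as the design, so that the third group adds to the estimate of the spread. The contrast was gFBXW7 minus gLuc, p-values were adjusted by Benjamini-Hochberg over all tested genes, and SE is the absolute log2 fold change over the square root of F. The fit was run on simulated counts with set fold changes, and the only condition was that their median was recovered. Those counts were drawn gene by gene without a length trend or pairing of libraries, so they do not test the fit against either. Shares of counts were compared by exact two-sided permutation tests, of which 5 were run. DESeq2 1.42.0, limma 3.58.1 (voom and log2(RPKM + 1)), sva 3.50.0, other scalings and filters, a replicate block and leaving out each library were alternatives. The length correction and the surrogate variable were added after seeing the data.

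The members and the 36 gene lists (839 tested entries) were chosen with earlier results of these data known. Named genes are FBXW7 and KMT2D, the 12 genes with the smallest p in each direction among those without overlap and of mean log2 CPM 3 or more, and from each list the 3 members with the highest mean log2 CPM and up to 4 with the smallest unadjusted p under 0.05. HSF1 was chosen after its values were seen. So were RCAN1 and other members that this rule does not name and that are given for having no overlap. A few genes that the rule names are not reported here. Coordinates come from GENCODE v29 (GRCh38).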

Additional observations from a re-analysis of the deposited data

How the results depend on the processing

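The count of 0 genes past the adjusted threshold was kept by edgeR under other scalings, filters and every left-out library, and by limma. It was 1 with the DESeq2 Wald test. Genes at an unadjusted p under 0.05 (86 higher, 123 lower) numbered 219 and 385 without a filter, 43 and 68 with a filter at a mean of 50 counts, 168 and 372 with the 6 libraries alone, and 291 and 272 with 1 surrogate variable. They ranged from 39 to 389 and from 61 to 466 when single libraries were left out. Genes without overlap (580 higher, 595 lower) numbered 884 and 1417 without a filter. They numbered 543 to 596 and 600 to 657 without a gFBXW7_gKMT2D library, which leaves 3 against 3. Without a gLuc or gFBXW7 library, fewer libraries make separation easier by construction. There they numbered 3551 and 3652 of 13395 tested genes without gLuc library 1, and at most 1148 and 1218 without any other library of these groups. No cause of any shift was tested. The mtDNA share difference ranged from -1.94 to -1.10 percentage points.

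Correlations did not settle whether the replicate numbers of the groups pair the samples. Deviations from the group means correlated between same-numbered gLuc and gFBXW7 libraries at 0.454, 0.0217 and 0.35. For gLuc library 2 the highest correlation was with gFBXW7 library 3 (0.145). Between unlike numbers, gLuc library 1 and gFBXW7 library 3 gave -0.382, and gLuc library 3 and gFBXW7 library 1 gave -0.434. The remaining unlike-number correlations lay between -0.156 and 0.165. With a replicate block on all 9 libraries, 0 genes passed the adjusted threshold and 89 and 114 were at an unadjusted p. With a replicate block on the 6 libraries alone, 30 genes passed (9 higher, 21 lower), of which 11 were mtDNA transcripts, and 1149 and 1159 were at an unadjusted p. Other genes described above that passed there were MALAT1, MTRNR2L8, MTRNR2L2, NOG and DDIT4. The mean of the same-number differences in mtDNA share was -1.43 percentage points, which equals the difference of the group means by construction and so is no further check.

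Total counts were 16803332 to 19410151 in these 6 libraries. For genes with few reads, such as CDKN1A, BBC3, EGR1 and HIST1H2BJ, depth limits the precision beside the spread between libraries. With 3 libraries a group the exact test of a share cannot go below p = 0.1.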
